A study of Mus musculus with 13 samples.

Results

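The Eif genes encode the eukaryotic translation initiation factors, the proteins that bring a ribosome, the initiator tRNA and an mRNA together before the first peptide bond is made. A gene was included when at least 1 probe set of the array named that gene alone and its symbol began with Eif and a digit. The rule gave 47 genes of the 18193 that could be named, measured by 133 probe sets of 45037. They comprised 4 genes of the eIF1 group, 9 of the eIF2 group, all 5 subunits of eIF2B, 11 subunits of eIF3, 13 genes of the eIF4 group, 4 of the eIF5 group and Eif6. The symbol alone decided membership, but the family was taken up with earlier results of these arrays known, so the shares of the family that changed are given as a description. Eif1, Eif2s1, Eif3g, Eif3j1, Eif3j2, Eif4a3l1, Eif4e1b, Eif4ebp3 and Eif4g1 were not analysed here.

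The cells were C2C12, an established line of mouse skeletal myoblasts that was used without any genetic change. Flasks run in parallel were grown in 5% fetal bovine serum (FBS) until 90% confluent, held in 0.2% FBS for 24 h to synchronise them, and put back into medium with FBS. The study set out to find genes with cyclic expression, as a model of the clock that times somite formation in the embryo. Total RNA from each time point was hybridised to 1 Affymetrix mouse array, and 13 arrays covering 0 to 6.0 h in steps of 0.5 h were analysed. The arrays were grouped by labelled time into 0 h (1 array at the end of low serum), early (4 arrays, 0.5 to 2.0 h), middle (4 arrays, 2.5 to 4.0 h) and late (4 arrays, 4.5 to 6.0 h).

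Each deposited value is a ratio to a reference value of its own probe set, so a value of 1.00 is that reference and no level can be compared between genes. Log2 ratios were averaged over the probe sets of each gene, and the averages are given as ratios unless a log2 difference is named. With 1 array per time point there were no replicates. An SD given with n = 4 is therefore the spread of 4 successive time points, and the p-values measure the spread within windows, in which technical variation and real change are mixed. Each array also holds RNA from a whole flask, so a change in the share of some cells and a change of RNA per cell cannot be told apart. The median ratio of an array lay between 0.977 and 1.00 over probe sets and between 0.965 (at 2.5 h) and 1.00 over genes, with all 4 middle arrays below 1.00 and all 4 late arrays at 1.00 over genes. The typical (median) SD of the log2 ratio inside a window was 0.090 for the Eif genes and 0.102 for all genes.

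Initiation starts when eIF2, loaded with GTP, delivers the initiator tRNA to the small ribosomal subunit together with eIF1, eIF1A, eIF3 and eIF5. The eIF4 proteins bind the cap of the mRNA, unwind its leader and recruit that complex, and eIF5B then joins the large subunit. eIF2 leaves bound to GDP and is recharged by eIF2B, a step that kinases block by phosphorylating eIF2, while the 4E-BP proteins block the cap binder eIF4E. In myoblasts, as in other cells, growth factors in serum act on several of these steps through phosphorylation.

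The promoters of 4 of the genes that rose by the late window are shown first because each holds the E-box CACGTG, the core letters bound by Myc and its relatives. They are the 250 bases upstream of a RefSeq transcript start (GRCm38.p6), printed 5′ to 3′ on the gene's strand with the motif in capitals. In Eif4e, Eif5a and Eif5a2 that start lies inside the annotated gene, so all or most of the printed stretch overlaps the gene.
Eif4e (chr3:138527018-138527267, plus strand): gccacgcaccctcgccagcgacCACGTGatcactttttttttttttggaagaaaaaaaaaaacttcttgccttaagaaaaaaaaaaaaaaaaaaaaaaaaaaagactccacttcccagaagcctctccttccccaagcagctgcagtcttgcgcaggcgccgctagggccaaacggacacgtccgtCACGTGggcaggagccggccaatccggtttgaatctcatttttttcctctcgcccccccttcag
Eif5a (chr11:69921387-69921636, minus strand): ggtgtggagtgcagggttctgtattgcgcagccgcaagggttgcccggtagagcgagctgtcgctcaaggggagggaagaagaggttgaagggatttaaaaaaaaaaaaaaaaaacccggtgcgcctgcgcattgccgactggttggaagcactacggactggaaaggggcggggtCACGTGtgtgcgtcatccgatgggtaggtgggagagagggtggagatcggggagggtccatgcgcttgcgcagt
Eif5a2 (chr3:28781027-28781276, plus strand): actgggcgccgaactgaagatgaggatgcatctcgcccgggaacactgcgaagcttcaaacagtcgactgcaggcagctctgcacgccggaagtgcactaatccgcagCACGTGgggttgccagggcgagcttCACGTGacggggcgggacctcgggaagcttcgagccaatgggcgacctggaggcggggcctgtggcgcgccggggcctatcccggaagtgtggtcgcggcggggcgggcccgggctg
Eif1b (chr9:120492356-120492605, plus strand): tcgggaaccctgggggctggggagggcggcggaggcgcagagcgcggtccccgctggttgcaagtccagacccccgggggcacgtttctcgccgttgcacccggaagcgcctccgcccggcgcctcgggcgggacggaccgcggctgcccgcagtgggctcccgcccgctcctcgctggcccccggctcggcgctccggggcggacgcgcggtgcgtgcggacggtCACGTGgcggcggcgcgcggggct
The first motif base lay 24 bases from the start in Eif1b, 74 in Eif5a, 228 and 64 in Eif4e, and 142 and 117 in Eif5a2. Of the 47 genes, 38 had a promoter in the RefSeq table, and 8 of these (21.1%) held CACGTG, which reads the same on both strands, against 1854 of all 27025 genes in that table (6.86%). Where the table lists several promoters of a gene, any of them counted. Among the Eif genes that were higher in the late than in the early window, 4 of 12 with a promoter held it (33.3%). The other holders were Eif3f, Eif3k, Eif4a1 and Eif4h, none of which passed the test between these windows. Of the other motifs searched on both strands, the C/EBP-ATF element TGATGNAA was found in 1 of the 38 Eif genes with a promoter (2.63%) against 3.91% of all genes in the table, and the cAMP element TGACGTCA in 0 of 38 against 1.77%. No Eif gene held more than 1 of these motifs. A match is a description and not a binding site, and no binding was measured here.

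More Eif genes were higher than lower in the late window. By limma, 16 of the 47 Eif genes were higher late than early at an adjusted p under 0.05 (34% of them, against 11.7% of all genes tested), and 2 were lower (4.26%, against 9.29% of all genes tested). The genes that rose were Eif1ad, Eif1ax, Eif1b, Eif2b1, Eif2b2, Eif2b3, Eif2b4, Eif2s2, Eif3b, Eif3i, Eif4a2, Eif4e, Eif4ebp1, Eif5a, Eif5a2 and Eif6, and those that fell were Eif4b and Eif2a. The median late minus early log2 difference was 0.15 over the Eif genes and 0.019 over all genes, and 34 of the 47 lay above 0 (72.3%, against 56% of all genes). In 19 Eif genes all 4 late arrays lay above all 4 early arrays (40.4%, against 14.1% of all genes tested), and in 3 they lay below (6.38%, against 11.1%).

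**Figure D1:**
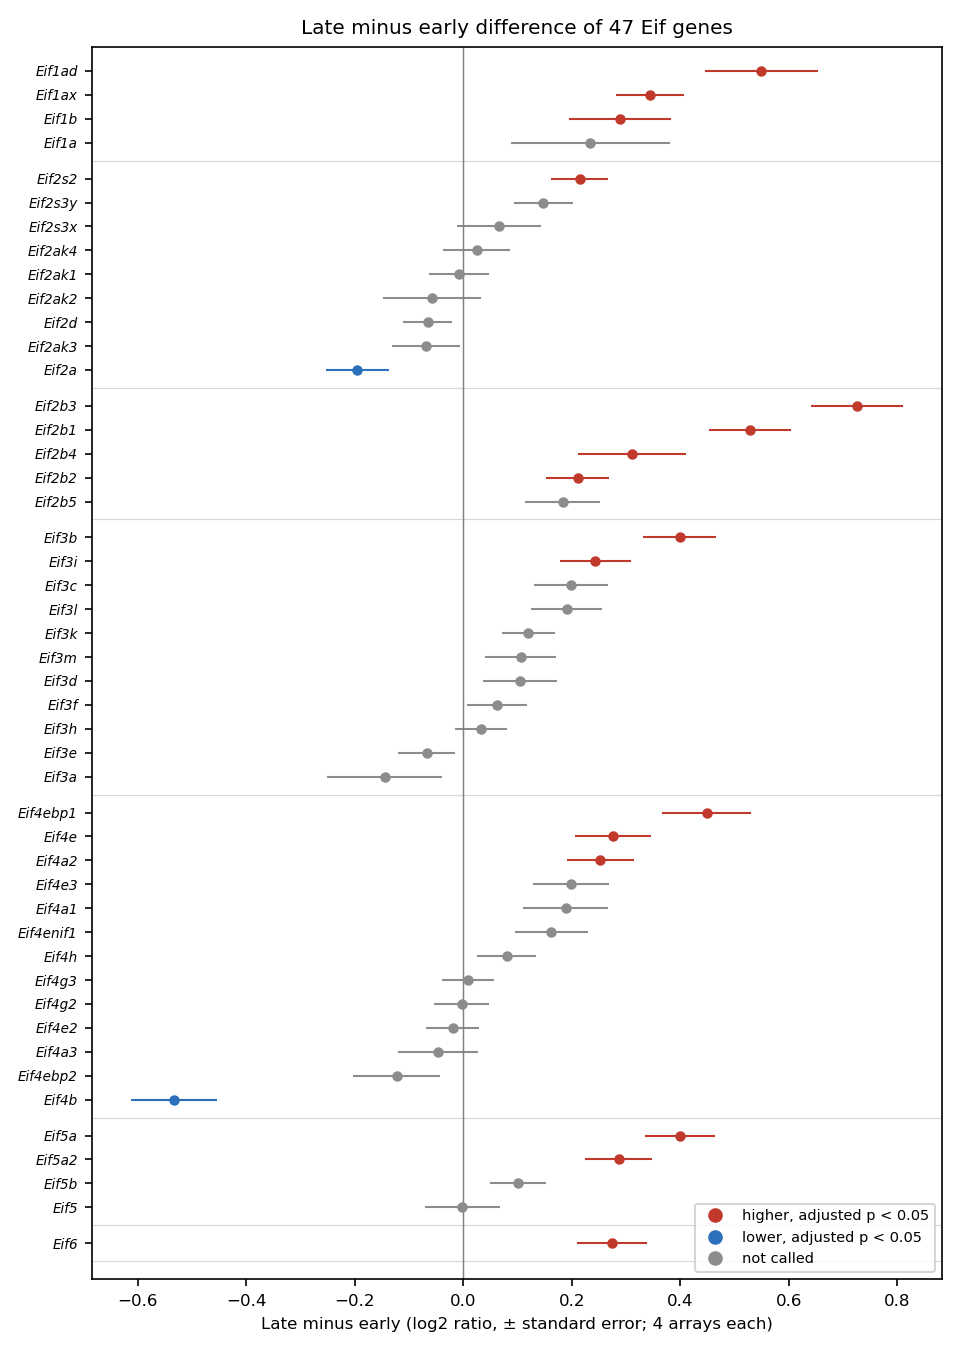
Late minus early log2 difference of each of the 47 Eif genes (points) with its standard error (bars), 4 arrays per window, grouped from eIF1 at the top to Eif6 at the bottom. The 5 eIF2B genes all lie to the right of 0, the eIF2 and eIF4 groups lie on both sides, and Eif4b lies farthest left at -0.53.

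The larger step came after 4.0 h. Late against middle, 11 Eif genes were higher (23.4%, against 10.3% of all genes tested) and 0 were lower (against 2.06%), and at an unadjusted p under 0.05 these counts were 26 and 1 (against 20.1% higher and 7.29% lower of all genes). The median late minus middle log2 difference was 0.14 over the Eif genes and 0.024 over all genes, and 43 of 47 lay above 0 (91.5%, against 57.4% of all genes). The genes that rose in this step were Eif1ax, Eif2b1, Eif2b3, Eif2s3x, Eif3b, Eif3c, Eif3i, Eif3m, Eif4a2, Eif4enif1 and Eif5a. In 22 Eif genes all late arrays lay above all middle arrays (46.8%, against 15.5% of all genes tested), and in 0 they lay below (against 3.97%). The number called depended on single arrays, with 5 left without the 2.5 h array and 4 left without the 5.5 h or the 6.0 h array. When every array was centred on its own median, 6 were left. The calls of Eif1ax, Eif3i, Eif4a2 and Eif5a were made in all 12 fits without 1 array, and each of the other 7 was lost in 3 to 10 of them.

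The step before it was mixed. Middle against early, 4 Eif genes were higher (8.51%, against 7.74% of all genes tested), namely Eif1ad, Eif2b1, Eif2b3 and Eif4ebp1. Another 4 were lower (8.51%, against 14.4% of all genes tested), namely Eif2a, Eif2ak2, Eif3e and Eif4b. The median middle minus early log2 difference was 0.0019 over the Eif genes and -0.00087 over all genes, and 24 of 47 lay above 0 (51.1%, against 49.8% of all genes). In 4 Eif genes all middle arrays lay above all early arrays (8.51%, against 8.03% of all genes tested), and in 5 they lay below (10.6%, against 15%). The count of 8 called genes fell to 5 without the 0.5, 1.0, 3.5 or 4.0 h array. In the 12 fits without 1 array, Eif2b1 was lost in 4, Eif4ebp1 in 5 and Eif2ak2 in 9, and the other 5 were called in all.

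In the first comparison, early against 0 h, 2 Eif genes were higher (4.26%, against 1.46% of all genes tested) and 0 were lower (against 1.81%). The genes were Eif5 and Eif5a2, and at an unadjusted p under 0.05 limma gave 5 higher and 2 lower (against 7.56% higher and 12.4% lower of all genes). The lone 0 h array was assumed to vary like the others, and both calls ended under quantile normalisation between arrays, where the adjusted p values were 0.290 for Eif5 and 0.0991 for Eif5a2. The median early minus 0 h log2 difference was -0.026 over the Eif genes and -0.030 over all genes. In this step 19 Eif genes lay above 0 (40.4%, against 42.9% of all genes), so most lay lower early than at 0 h. The median ratio over the Eif genes was 0.990 at 0 h, 0.909 at 0.5 h and 0.992 at 2.0 h. The late minus early differences are counted from this early window.

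Over the whole series, a smooth course, fitted as a spline of time with 4 degrees of freedom, was called in 26 Eif genes (55.3%, against 38% of all genes tested). The 25 genes that changed in at least 1 of the 4 window comparisons left 22 that passed in none. For 29 of the 47 genes the highest of the 13 arrays lay in the late window (61.7%, against 30.5% of all genes), most often at 5.5 h (13 genes) and 6.0 h (12 genes). The lowest array lay most often at 0.5 h (11 genes) and at 4.0 h (11 genes), each 23.4% of the family, against 12.3% and 10.3% of all genes. The highest array exceeded the lowest by 1.09 times in Eif2d, the flattest course, and by 2.10 times in Eif1ad, the steepest. The flat course of Eif2d is a mean of 6 probe sets that moved in opposite directions. Their middle minus early differences ran from -0.33 (adjusted p = 0.0122) to 0.32 (adjusted p = 0.0100).

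**Figure D2:**
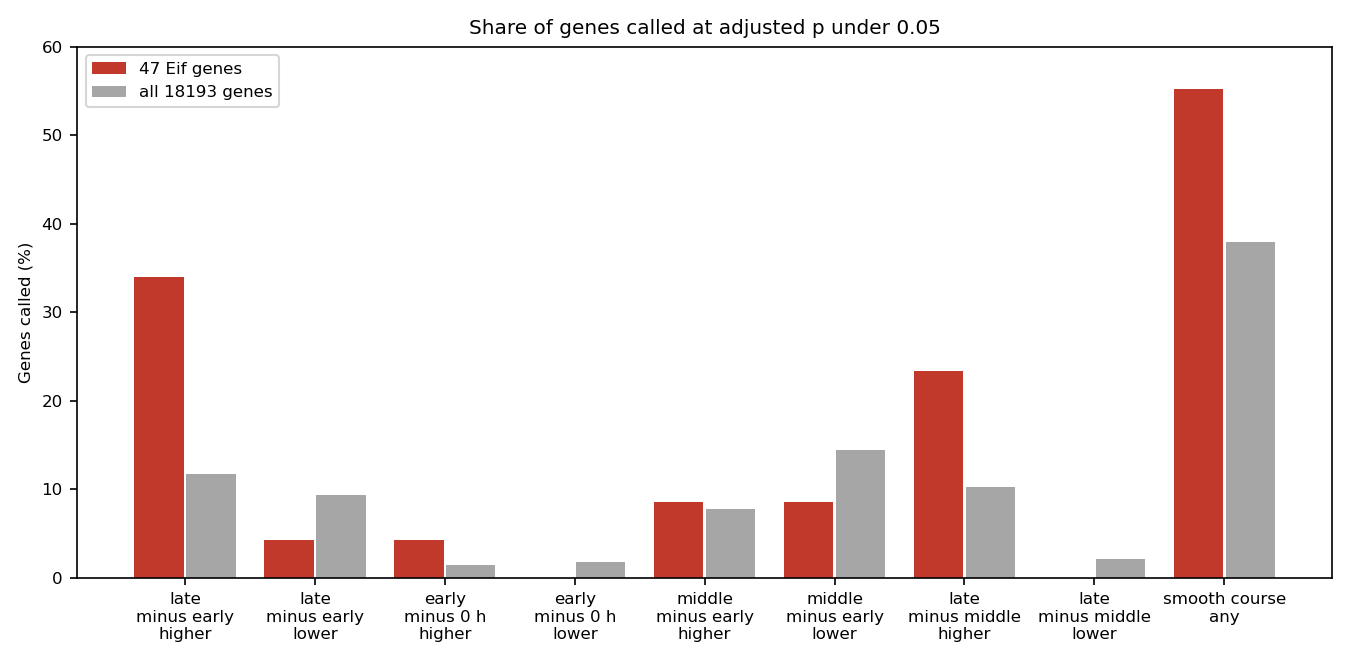
Share of genes called at an adjusted p under 0.05 (vertical axis, %) in each window comparison and direction and for the smooth course, for the 47 Eif genes (red) and all 18193 genes (grey). The Eif bar stands highest above the grey bar for late minus early, higher (34% against 11.7%), and below it for middle minus early, lower (8.51% against 14.4%).

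Each of the 3 array control probe sets for 18S ribosomal RNA was higher at 5.0, 5.5 and 6.0 h than on any other array. The 3′ set reached 1.57 at 6.0 h and the set for the middle of the transcript 1.40 at 5.0 h. At 4.5 h, also in the late window, these sets stood at 0.949 and 0.999. The 5′ control probe set for 18S stood at 0.849 at 0 h, at 0.411, 1.40, 0.447 and 0.828 in the early window, at 0.454, 0.397, 1.24 and 2.14 in the middle window, and at 0.889, 3.92, 2.67 and 5.24 in the late window. The 3 control probe sets for beta-actin ranged from 0.932 to 0.978 at 0 h, from 0.964 to 1.06 in the early window, from 0.916 to 0.982 in the middle window and from 1.00 to 1.13 in the late window, and each was higher at 5.0, 5.5 and 6.0 h than on any other array. Those for Gapdh ranged from 1.04 to 1.10 at 0 h, from 0.986 to 1.05 early, from 0.922 to 1.03 in the middle window and from 0.936 to 1.09 late. The part of the 18S and beta-actin signals in the late results was not tested. Of the markers fixed for other cell types, 0 of 8 for blood and endothelium and 0 of 5 measured for adipocytes and osteoblasts passed the limma test between late and early, with 0 and 0 at an unadjusted p under 0.05. Dcn, 1 of 5 for fibroblasts, fell, at -0.26 ± 0.056 (adjusted p = 0.00417). Of 8 myoblast markers, Myog rose by 0.34 ± 0.066 (adjusted p = 0.00194) and the other 7 did not pass the test. At an unadjusted p under 0.05 the fibroblast and the myoblast markers each had 1 higher and 2 lower late than early. Of all genes tested, 11.7% were higher and 9.29% lower late than early, and 17.7% and 13.9% at that unadjusted threshold. Late against middle, 3 of 8 myoblast markers rose (37.5%, against 10.3% of all genes tested). They were Myf5 by 0.53 ± 0.13 (adjusted p = 0.0155), Myog by 0.25 ± 0.066 (adjusted p = 0.0253) and Chrna1 by 0.20 ± 0.055 (adjusted p = 0.0282). Alpl, 1 of 5 for adipocytes and osteoblasts (20%, against 2.06% of all genes tested), fell in that step, at -0.40 ± 0.063 (adjusted p = 0.00214). Of the fibroblast markers 0 of 5 passed, and of the blood and endothelium markers 0 of 8. At an unadjusted p under 0.05, 0 fibroblast markers and 1 blood and endothelium marker (lower) did. The shares of all genes at that threshold were 20.1% higher and 7.29% lower. Middle against early, Myf5 fell, at -0.60 ± 0.13 (adjusted p = 0.00421), and Dcn fell, at -0.29 ± 0.056 (adjusted p = 0.00269). In the same step Alpl rose by 0.39 ± 0.063 (adjusted p = 9.58e-04), and no other of these markers passed. Of all genes tested, 7.74% were higher and 14.4% lower middle against early. Early against 0 h, Pdgfra alone passed, at -0.42 ± 0.10 (adjusted p = 0.0361), where 1.46% of all genes tested were higher and 1.81% lower. The part of the marker changes in the Eif results was not tested. Ratios hold no level, so whether a marker is present or absent in these cells could not be read from them.

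The counts by group are read against the 11.7% of all genes that were higher and the 9.29% that were lower late than early. In eIF2B 4 of 5 genes were higher (80%), with a median log2 difference of 0.31, and in the eIF1 group 3 of 4 (75%), with a median of 0.32. In the eIF5 group 2 of 4 were higher (50%, median 0.19). In the eIF4 group 3 of 13 were higher (23.1%) and 1 lower (7.69%), with a median of 0.080. Without probe sets that can match several transcripts, the eIF4 median was 0.0084 and the eIF5 median 0.10. In eIF3 2 of 11 were higher (18.2%, median 0.11), and in the eIF2 group 1 of 9 was higher and 1 lower (11.1% each), with a median of -0.0080, so the shares of the eIF2 group lay near those of all genes. These are counts within small groups, and differences between the groups were not tested. Some medians by array follow. For the eIF1 group the median ratio was 1.17 at 6.0 h, against 0.710 at 0 h. For eIF2B it was 0.993 at 0 h, fell to 0.825 at 0.5 h, and was still 0.888 at 2.5 h. It was 1.23 at 5.5 h and 1.11 at 6.0 h, so the eIF2B rise is counted from an early window below 0 h. For the eIF2 group the median ratio was 0.952 at 6.0 h, against 0.993 at 0 h.

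**Figure D3:**
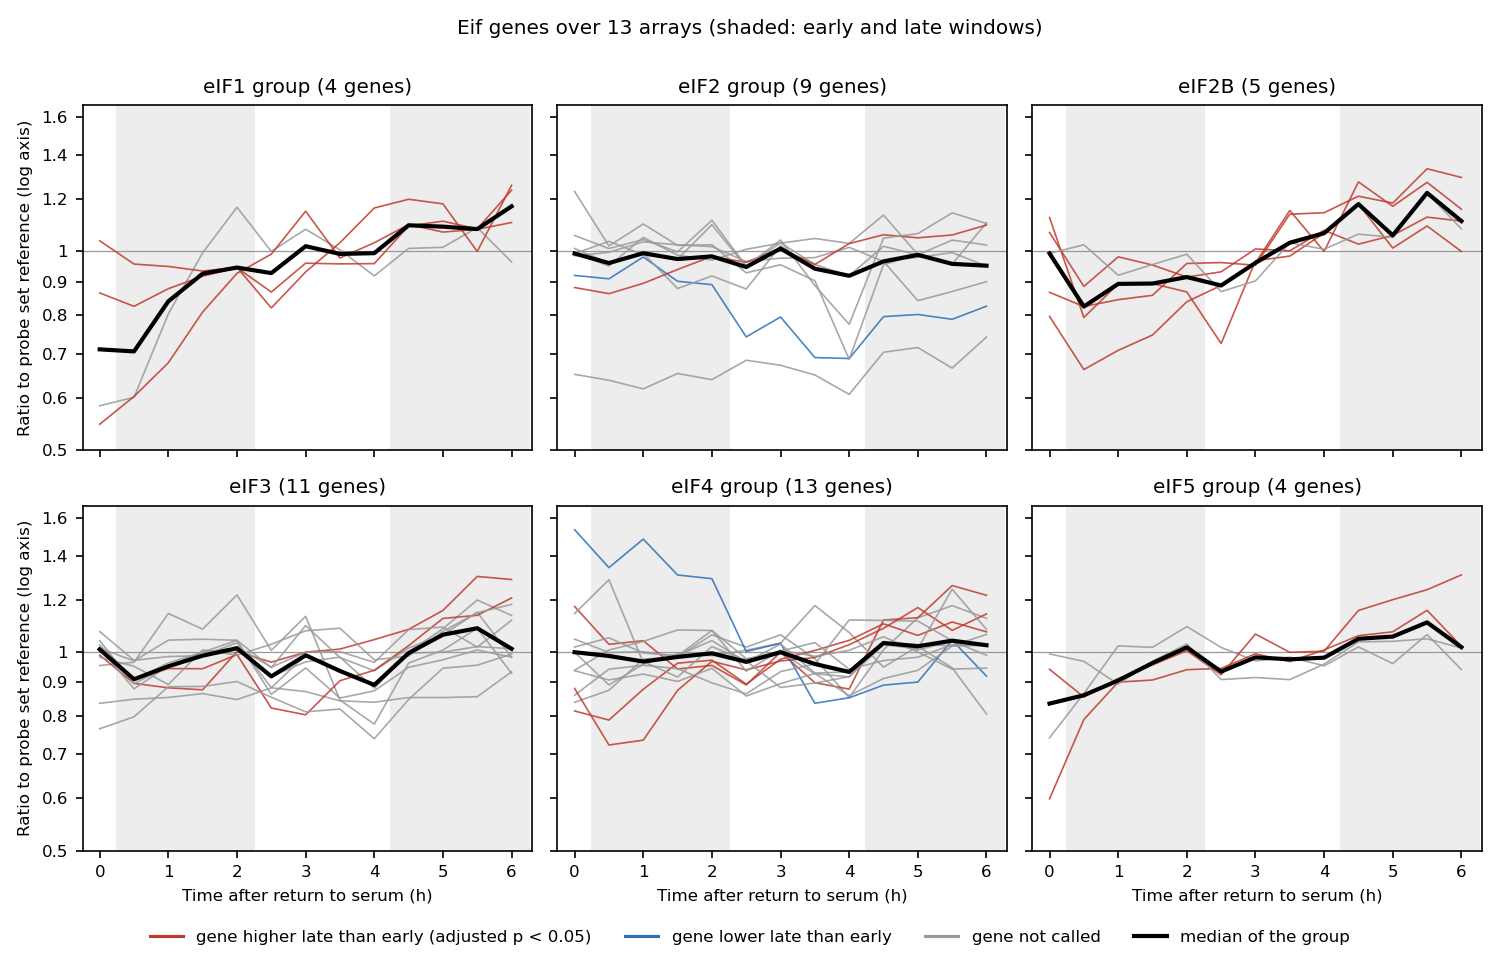
Ratio to the probe set reference (vertical log axis) against hours after the return to serum for the genes of 6 Eif groups, 1 array per time point, with the early and late windows shaded. Thin red lines are genes higher late than early, blue lines genes lower, grey lines genes not called, and the black line is the median of the group, which ends at 1.17 in the eIF1 panel, against 0.710 at 0 h, and stays between 0.919 and 1.01 in the eIF2 panel.

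The eIF1 group includes eIF1A and relatives of eIF1, small proteins that sit at the ribosome's decoding site and hold it open until the start codon is found. Eif1ad, whose product is an eIF1A-like protein of ribosome assembly, had the largest rise of the group. It measured 0.547 at 0 h, 0.603, 0.678, 0.809 and 0.926 in the early window, 0.991, 1.15, 0.977 and 1.03 in the middle window and 1.10, 1.07, 1.08 and 1.11 in the late window. All late and all middle arrays lay above all early arrays, the highest value was at 3.0 h, and the late minus early log2 difference was 0.55 ± 0.10 (adjusted p = 0.00160). Its middle minus early difference was 0.48 ± 0.10 (adjusted p = 0.00561). Eif1ax, the X-linked gene for eIF1A, rose later. It stood at 0.865 at 0 h, 0.826, 0.878, 0.917 and 0.945 in the early window, 0.868, 0.960, 0.958 and 0.959 in the middle window and 1.09, 1.11, 1.08 and 1.24 in the late window. The late arrays lay above both earlier windows, with a log2 difference of 0.34 ± 0.063 (adjusted p = 0.00118) against early and 0.27 ± 0.063 (adjusted p = 0.0132) against middle. Its 3 probe sets differed in size, with late minus early differences between 0.096 and 0.48, and with their median in place of their mean the call was lost (adjusted p = 0.0544). Eif1b, a close relative of Eif1, rose by 0.29 ± 0.094 (adjusted p = 0.0409) with 1 probe set. This call was not made in 7 of the 12 fits without 1 array, up to an adjusted p of 0.118. In the fit of all probe sets it missed the threshold (adjusted p = 0.0576). Eif1a, the autosomal copy, reached 1.17 at 2.0 h, against 0.583 at 0 h, but it passed no window comparison, at 0.57 ± 0.23 (adjusted p = 0.186) for early minus 0 h and 0.23 ± 0.15 (adjusted p = 0.305) for late minus early. Its smooth course did pass (adjusted p = 9.30e-05). Eif1a and Eif1ax encode nearly the same protein, and whether their probe sets read each other's transcript was not tested.

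The eIF2 group holds the subunits of the GTP-binding carrier of initiator tRNA, its kinases and the tRNA carriers Eif2a and Eif2d. Eif2s2, the beta subunit, was the only gene of this group that rose from the early to the late window. It measured 0.882 at 0 h, 0.863, 0.895, 0.939 and 0.983 in the early window, 0.963, 1.01, 0.956 and 1.03 in the middle window and 1.06, 1.05, 1.06 and 1.10 in the late window. Its late arrays stood above all others, and the log2 difference was 0.21 ± 0.053 (adjusted p = 0.00953). Its 6 probe sets did not move alike: 3 rose, by 0.29, 0.32 and 0.69, 1 fell by 0.31 (adjusted p = 0.0273), and 2 did not pass the test. Eif2s3x and Eif2s3y are the X-linked and Y-linked genes of the gamma subunit. Eif2s3x had a late minus early difference of 0.066 ± 0.077 (adjusted p = 0.634) and a late minus middle difference of 0.26 ± 0.077 (adjusted p = 0.0404), after its lowest value of 0.775 at 4.0 h. The late minus middle call of Eif2s3x was lost in 9 of the 12 fits without 1 array, and without the 4.0 h array the difference was 0.19 (adjusted p = 0.0902). Eif2s3y lay below 1.00 on all 13 arrays with both of its probe sets. Its ratios were 0.651 at 0 h, 0.638, 0.619, 0.653 and 0.639 in the early window, 0.684, 0.672, 0.650 and 0.607 in the middle window and 0.703, 0.715, 0.665 and 0.742 in the late window. The late arrays lay above the early ones by 0.15 ± 0.054, which did not pass the test (adjusted p = 0.0681).

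Eif2a, which encodes a factor distinct from the eIF2 alpha subunit that can carry initiator tRNA to the ribosome on some mRNAs, fell. It stood at 0.920 at 0 h, 0.909, 0.981, 0.901 and 0.891 in the early window, 0.742, 0.795, 0.690 and 0.688 in the middle window and 0.796, 0.802, 0.789 and 0.826 in the late window. The middle and late arrays all lay below the early ones, and the fall was in place at 2.5 h. The middle minus early difference was -0.34 ± 0.057 (adjusted p = 0.00129) and the late minus early difference -0.20 ± 0.057 (adjusted p = 0.0251). The middle minus early call was made in all 12 fits without 1 array but did not hold under every alternative of processing. The 3 probe sets of Eif2a gave middle minus early differences of -0.73, -0.30 and 0.018, the last from a probe set below 1.00 on all 13 arrays. The late minus early call was lost without the 1.0, 4.5, 5.0 or 5.5 h array and without probe sets that can match several transcripts (adjusted p = 0.143). Eif2d, a factor that loads initiator tRNA without GTP, also had its late arrays below its early ones, by -0.065 ± 0.045, which did not pass the test (adjusted p = 0.359).

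None of the kinases that phosphorylate eIF2 alpha passed the test between late and early. Eif2ak1 (HRI, the heme-regulated kinase) stood at 0.993 at 0 h, 1.04, 0.989, 0.974 and 1.10 in the early window, 0.947, 1.03, 0.955 and 0.919 in the middle window and 1.02, 0.988, 1.04 and 1.02 in the late window. Eif2ak3 (PERK, the kinase of the endoplasmic reticulum) stood at 1.01 at 0 h, 0.960, 0.994, 0.879 and 0.918 in the early window, 0.877, 1.02, 0.942 and 0.919 in the middle window and 0.966, 0.842, 0.869 and 0.900 in the late window. Eif2ak4 (GCN2, which senses uncharged tRNA) stood at 0.994 at 0 h, 0.950, 1.05, 0.987 and 0.971 in the early window, 1.01, 1.03, 1.05 and 1.03 in the middle window and 1.14, 0.989, 0.958 and 0.952 in the late window. In these 3 genes the windows overlapped, and the late minus early differences were -0.0080 ± 0.055, -0.069 ± 0.063 and 0.025 ± 0.061, with limma adjusted p values of 0.946, 0.521 and 0.839. Eif2ak2 (PKR, activated by double-stranded RNA) had a dip. Its ratios were 1.23 at 0 h, 1.02, 1.10, 1.02 and 1.02 in the early window, 0.928, 0.955, 0.903 and 0.686 in the middle window and 0.955, 0.989, 0.956 and 1.11 in the late window. All 4 middle arrays lay below all early and all late arrays, and the 4.0 h array was the lowest. The margin to the late window was slim, with 0.9547 at 3.0 h against 0.9550 at 4.5 h. The middle minus early difference was -0.27 ± 0.091 (adjusted p = 0.0430). This call was lost in 9 of the 12 fits without 1 array and when arrays were centred on their medians (adjusted p = 0.0540). The 3 probe sets of Eif2ak2 gave -0.061, -0.32 and -0.45 in that comparison (adjusted p = 0.708, 0.0221 and 0.0544). The late minus early difference was -0.058 ± 0.091 (adjusted p = 0.731).

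eIF2B is the exchange factor that recharges eIF2 with GTP, and it is the step on which phosphorylated eIF2 acts as an inhibitor. Its genes for the alpha, beta, gamma, delta and epsilon subunits are Eif2b1, Eif2b2, Eif2b3, Eif2b4 and Eif2b5. Eif2b3 had the largest late minus early difference of the 47 genes. It measured 0.797 at 0 h, 0.662, 0.708, 0.747 and 0.839 in the early window, 0.888, 0.961, 1.15 and 1.00 in the middle window and 1.27, 1.17, 1.27 and 1.16 in the late window. Each window lay wholly above the one before it, apart from the single 0 h array, which fell within the early range. Eif2b3 averaged 1.22 ± 0.0631 late and 0.739 ± 0.0752 early (SD, n = 4 time points each), a 1.65-fold difference and a log2 difference of 0.73 ± 0.085 (adjusted p = 5.06e-05). Eif2b1 measured 0.867 at 0 h, 0.825, 0.845, 0.858 and 0.959 in the early window, 0.962, 0.953, 1.14 and 1.15 in the middle window and 1.21, 1.18, 1.33 and 1.29 in the late window. All 4 late arrays lay above the rest, and Eif2b1 averaged 1.26 ± 0.0702 late and 0.872 ± 0.0597 early (SD, n = 4 time points each), a log2 difference of 0.53 ± 0.075 (adjusted p = 2.05e-04). Eif2b4 rose by 0.31 ± 0.10 (adjusted p = 0.0380) and Eif2b2 by 0.21 ± 0.058 (adjusted p = 0.0178). Both started higher at 0 h, at 1.13 and 1.07, than on any early array. Those 0 h values lay within their late ranges, of 1.00 to 1.18 and 1.03 to 1.13. The call of Eif2b4 was lost in 7 of the 12 fits without 1 array and that of Eif2b2 in 2. Eif2b5, which encodes the catalytic subunit, had its late arrays above its early ones by 0.18 ± 0.070 and missed the threshold (adjusted p = 0.0798). Eif2b1, Eif2b3 and Eif2b4 were each measured by 1 probe set. In the fit of all probe sets, that of Eif2b4 missed the threshold late minus early (adjusted p = 0.0516). Of the 3 probe sets of Eif2b2, 1 passed (adjusted p = 0.0165) and the others did not (adjusted p = 0.0834 and 0.112).

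eIF3 is the largest initiation factor, a scaffold of many subunits that binds the small ribosomal subunit and the eIF4 proteins. Of its 11 measured subunits, Eif3b and Eif3i rose from early to late, and both belong to the same peripheral module of the complex. Eif3b measured 0.990 at 0 h, 0.897, 0.883, 0.877 and 1.00 in the early window, 0.966, 1.00, 1.01 and 1.04 in the middle window and 1.08, 1.16, 1.30 and 1.29 in the late window. Its late arrays lay above all others, with the highest at 5.5 and 6.0 h, and the log2 difference was 0.40 ± 0.068 (adjusted p = 7.07e-04). Eif3i measured 1.01 at 0 h, 0.911, 0.944, 0.944 and 0.992 in the early window, 0.823, 0.804, 0.905 and 0.939 in the middle window and 1.02, 1.13, 1.14 and 1.21 in the late window. It dipped at 2.5 and 3.0 h and then climbed, with a late minus middle difference of 0.37 ± 0.065 (adjusted p = 0.00374) and a late minus early difference of 0.24 ± 0.065 (adjusted p = 0.0152). The dip came from 1 of its 2 probe sets, at -0.41 middle minus early and 0.66 late minus middle (adjusted p = 0.0137 and 0.00205). The other gave 0.15 and 0.084 (adjusted p = 0.115 and 0.464). Leaving out the 6.0 h array ended the late minus early call of Eif3i (adjusted p = 0.0513). Eif3c and Eif3m passed the test in the late minus middle comparison alone, where they rose by 0.26 ± 0.068 (adjusted p = 0.0262) and 0.21 ± 0.066 (adjusted p = 0.0467). In the fits without 1 array the call of Eif3c was lost in 4 of 12 (adjusted p up to 0.0845) and that of Eif3m in 10 of 12 (adjusted p up to 0.138).

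Among the other eIF3 subunits, Eif3e fell in the middle window. Eif3e, which links eIF3 to eIF4G, measured 1.01 at 0 h, 0.970, 1.04, 1.05 and 1.04 in the early window, 0.863, 0.947, 0.852 and 0.874 in the middle window and 0.949, 0.974, 1.01 and 0.983 in the late window. Its middle arrays all lay below its early ones, by -0.22 ± 0.052 (adjusted p = 0.00963), and the late arrays overlapped the early ones, at -0.068 ± 0.052 (adjusted p = 0.423). Without probe sets that can match several transcripts the middle minus early difference of Eif3e was -0.055 (adjusted p = 0.510). Eif3a, the largest subunit, had the lowest late minus early value of the complex. It measured 0.955 at 0 h, 0.965, 1.14, 1.08 and 1.22 in the early window, 1.01, 1.13, 0.846 and 0.778 in the middle window and 0.963, 1.01, 1.09 and 0.929 in the late window. The windows overlapped, the range within each was wide, and the difference was -0.14 ± 0.11 (adjusted p = 0.396). Eif3d, Eif3f, Eif3h, Eif3k and Eif3l had late minus early differences between 0.033 and 0.19 and did not pass the test.

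The eIF4 group holds the cap binders, the helicases with their cofactors, the scaffolds, and the binding proteins that restrain the cap binder. The helicases differed from one another. Eif4a1, the main helicase of initiation, measured 0.840 at 0 h, 0.876, 0.976, 0.984 and 1.06 in the early window, 1.02, 1.06, 0.978 and 0.854 in the middle window and 1.01, 1.13, 1.18 and 1.13 in the late window. Its windows overlapped, and the late minus early difference was 0.19 ± 0.078 (adjusted p = 0.107). Eif4a2, its close copy, measured 1.17 at 0 h, 1.03, 1.04, 0.943 and 0.955 in the early window, 0.892, 1.00, 0.899 and 0.879 in the middle window and 1.12, 1.13, 1.26 and 1.22 in the late window. The late arrays lay above all early and middle arrays, but the 0 h array, at 1.17, lay within the late range. The late minus early difference of Eif4a2 was 0.25 ± 0.062 (adjusted p = 0.00885) and the late minus middle difference 0.37 ± 0.062 (adjusted p = 0.00318). Eif4a3, the helicase of the exon junction complex, which acts on spliced mRNA rather than in initiation, measured 1.00 at 0 h, 0.892, 0.959, 0.995 and 0.988 in the early window, 1.01, 1.03, 1.18 and 1.07 in the middle window and 0.949, 1.02, 0.947 and 0.806 in the late window. It was highest at 3.5 h and lowest at 6.0 h, all 4 middle arrays lay above all early arrays, and neither the middle minus early difference of 0.16 ± 0.074 (adjusted p = 0.137) nor the late minus early difference of -0.046 ± 0.074 (adjusted p = 0.738) passed the test.

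Eif4b, which encodes the cofactor that stimulates the helicase, was the member that fell most. It measured 1.53 at 0 h, 1.34, 1.48, 1.31 and 1.29 in the early window, 1.00, 1.03, 0.837 and 0.853 in the middle window and 0.891, 0.901, 1.04 and 0.920 in the late window. The 0 h and early arrays lay between 1.29 and 1.53 and all 8 later ones at or below 1.04. Eif4b averaged 0.939 ± 0.0703 late and 1.36 ± 0.0872 early (SD, n = 4 time points each), a log2 difference of -0.53 ± 0.080 (adjusted p = 2.87e-04). The whole of the fall lay between the early and middle windows, at -0.55 ± 0.080 (adjusted p = 5.19e-04), and the late minus middle difference was 0.015 ± 0.080 (adjusted p = 0.929). All 3 probe sets of Eif4b fell, by 0.41 to 0.72. Eif4h, a related cofactor, passed no window comparison, and was at 0.080 ± 0.054 (adjusted p = 0.353) for late minus early.

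**Figure D4:**
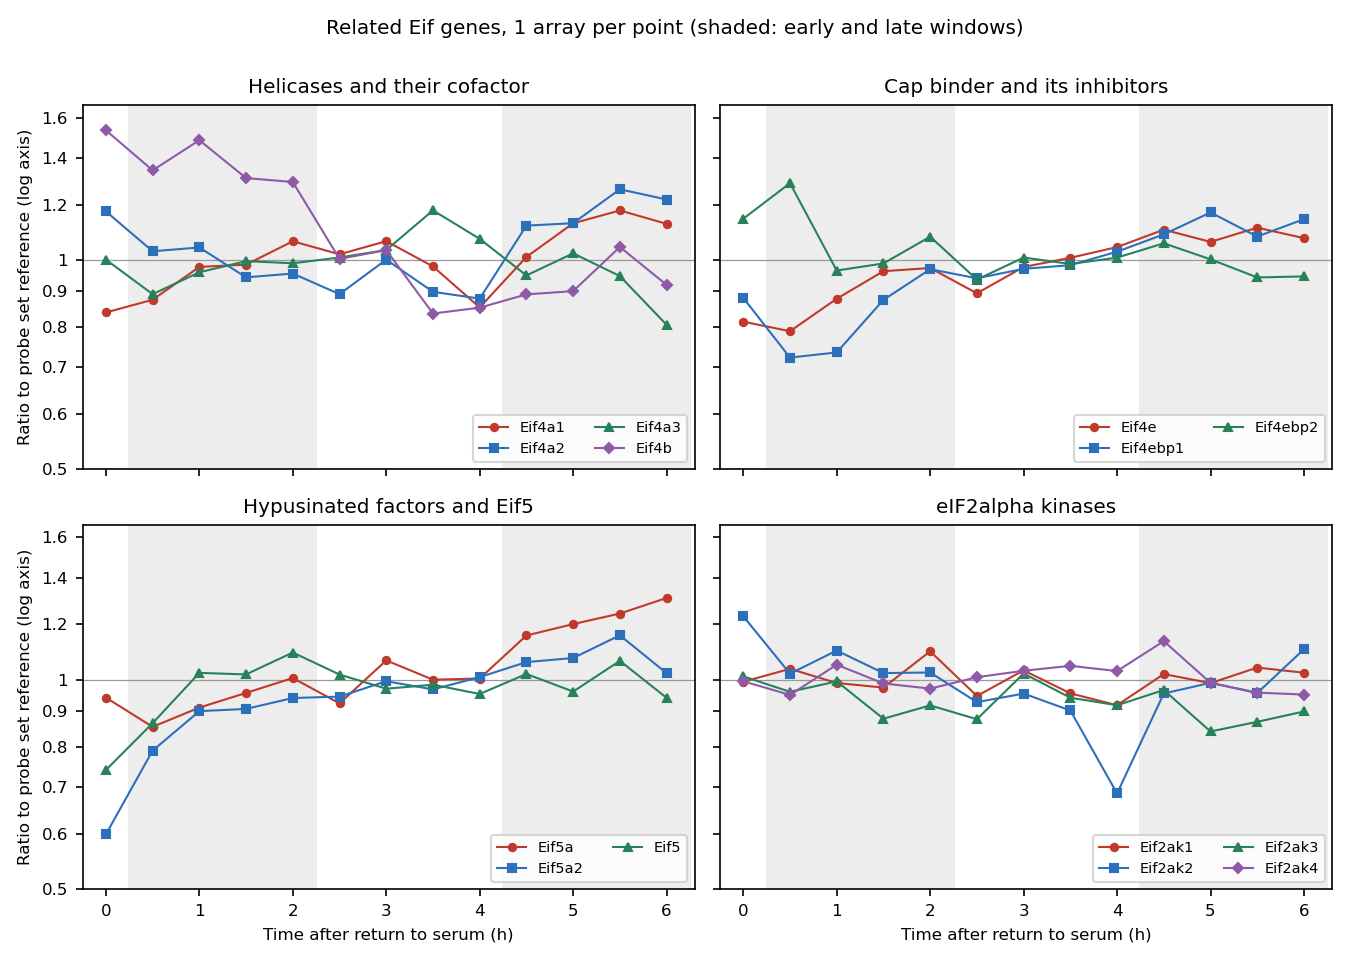
Ratio to the probe set reference (vertical log axis) against hours after the return to serum for related Eif genes, 1 array per point, with the early and late windows shaded. Eif4b falls to 1.00 at 2.5 h while Eif4a2 ends at 1.22. Eif4e and Eif4ebp1 lie above 1.00 on all 4 late arrays and Eif4ebp2 ends at 0.946. Eif5a and Eif5a2 end above 1.00, and Eif2ak2 dips to 0.686 at 4.0 h.

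The cap binder and an inhibitor of it both rose. Eif4e, which encodes the protein that grips the mRNA cap, measured 0.814 at 0 h, 0.789, 0.879, 0.962 and 0.973 in the early window, 0.895, 0.976, 1.01 and 1.04 in the middle window and 1.10, 1.06, 1.11 and 1.07 in the late window. The late arrays lay above all others, and the log2 difference was 0.28 ± 0.070 (adjusted p = 0.0106). Of its 4 probe sets 3 rose, by 0.31 to 0.53, and the other gave -0.24 (adjusted p = 0.101). Eif4ebp1, whose product 4E-BP1 sequesters eIF4E until it is phosphorylated, measured 0.881 at 0 h, 0.723, 0.736, 0.875 and 0.969 in the early window, 0.940, 0.970, 0.982 and 1.03 in the middle window and 1.09, 1.17, 1.08 and 1.14 in the late window. Its late arrays also lay above all others, its lowest values were at 0.5 and 1.0 h, and the log2 difference was 0.45 ± 0.082 (adjusted p = 0.00121). All 3 of its probe sets rose. Eif4ebp2, another inhibitor of the same kind, passed no window comparison. It measured 1.14 at 0 h, 1.29, 0.964, 0.987 and 1.08 in the early window, 0.936, 1.01, 0.986 and 1.01 in the middle window and 1.06, 1.00, 0.943 and 0.946 in the late window. The highest value was at 0.5 h, the windows overlapped, and the late minus early difference was -0.12 ± 0.080 (adjusted p = 0.333).

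Of the other members of the group, Eif4enif1, which carries eIF4E into the nucleus, rose between middle and late by 0.25 ± 0.067 (adjusted p = 0.0282), a call lost in 5 of the 12 fits without 1 array. The cap binders Eif4e2 and Eif4e3 and the scaffolds Eif4g2 and Eif4g3 passed no window comparison. Their late minus early differences were -0.020 ± 0.049, 0.20 ± 0.070, -0.0029 ± 0.051 and 0.0084 ± 0.048. The smooth course of Eif4e3 was called (adjusted p = 0.00349), and its late arrays, from 1.02 to 1.12, lay above its early ones, from 0.898 to 0.956.

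The eIF5 group joins factors of different kinds. Eif5a and Eif5a2 encode the proteins that carry hypusine, a modified lysine found in no other protein, and that help the ribosome through difficult stretches during elongation and at termination. Eif5a measured 0.942 at 0 h, 0.855, 0.911, 0.957 and 1.01 in the early window, 0.924, 1.07, 1.00 and 1.00 in the middle window and 1.16, 1.20, 1.24 and 1.31 in the late window. The 4 late arrays lay above all others and climbed from array to array. Eif5a averaged 1.23 ± 0.0651 late and 0.932 ± 0.0640 early (SD, n = 4 time points each), a log2 difference of 0.40 ± 0.064 (adjusted p = 4.97e-04), and the late minus middle difference was 0.30 ± 0.064 (adjusted p = 0.00948). Both probe sets of Eif5a can match several transcripts. Eif5a2, the copy with a narrower tissue range, measured 0.599 at 0 h, 0.791, 0.901, 0.907 and 0.941 in the early window, 0.945, 0.994, 0.968 and 1.01 in the middle window and 1.06, 1.07, 1.16 and 1.02 in the late window. The 0 h array was the lowest of the 13, and each window lay above the one before it. The early minus 0 h difference was 0.56 ± 0.098 (adjusted p = 0.00887) and the late minus early difference 0.29 ± 0.062 (adjusted p = 0.00387). Of the 2 probe sets of Eif5a2, 1 rose from early to late by 0.48 and the other gave 0.097.

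Eif5, which encodes the protein that triggers GTP hydrolysis by eIF2 at the start codon, moved within the first hour. It measured 0.741 at 0 h, 0.866, 1.02, 1.02 and 1.09 in the early window, 1.02, 0.970, 0.983 and 0.953 in the middle window and 1.02, 0.961, 1.06 and 0.941 in the late window. The 0 h array lay below all 12 others, and the later windows overlapped one another. The early minus 0 h difference was 0.43 ± 0.11 (adjusted p = 0.0485), a call that was lost in 11 of the 12 fits without 1 array, and the late minus early difference was -0.0015 ± 0.069 (adjusted p = 0.992). Of the 5 probe sets of Eif5, 1 fell from early to late by 0.58 (adjusted p = 0.0145), and the others gave 0.058 to 0.21 and did not pass the test. Eif5b, which joins the large subunit, passed no window comparison, and was at 0.10 ± 0.052 (adjusted p = 0.198) for late minus early. Eif6, which keeps the large subunit from joining too soon and is needed to make it, measured 0.795 at 0 h, 0.851, 0.920, 0.947 and 1.03 in the early window, 0.934, 1.05, 1.04 and 1.05 in the middle window and 1.14, 1.15, 1.07 and 1.16 in the late window. Late arrays again lay above all others, and the log2 difference was 0.27 ± 0.065 (adjusted p = 0.00692). Its 2 probe sets gave 0.49 (adjusted p = 8.36e-04) and 0.061 (adjusted p = 0.658).

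Probe sets of a gene did not always give the same answer. Of the 133 probe sets, 27 were higher (20.3%, against 8.08% of all 45037 probe sets) and 8 lower (6.02%, against 7.25%) late than early in a fit of all probe sets. In this comparison Eif2s2 was the only gene with probe sets called in opposite directions. Middle against early, Eif2d and Eif4e also had probe sets called in both directions. A further 6 probe sets name an Eif gene together with another gene and were left out.

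Genes that work next to the Eif proteins were read from lists of elongation, recycling and regulatory genes, tested in the same fit. Of 16 measured genes listed under elongation and termination, 5 were higher late than early (31.2%, against 11.7% of all genes tested) and 0 lower (against 9.29%). Eef1e1, counted in this list although it is an auxiliary protein of the tRNA synthetase complex, rose by 0.90 ± 0.14 (adjusted p = 3.08e-04). Gspt1, the GTPase that releases finished chains, rose by 0.37 ± 0.085 (adjusted p = 0.00614). Pelo, which rescues stalled ribosomes, rose by 0.36 ± 0.071 (adjusted p = 0.00228), and Eef1d, an exchange factor of elongation, by 0.32 ± 0.064 (adjusted p = 0.00242). Abce1 was the other gene of the list that rose, by 0.29 ± 0.095 (adjusted p = 0.0425). The median of this list was 0.084 on the log2 scale. Of 13 genes of poly(A) binding, recycling and reinitiation, 2 were higher (15.4%) and 1 lower (7.69%), shares near those of all genes, with a median of -0.053. Denr, which recycles small subunits and helps reinitiation, rose by 0.62 ± 0.11 (adjusted p = 0.00106), and Dhx29, a helicase for structured leaders, by 0.25 ± 0.085 (adjusted p = 0.0472). Paip2, an inhibitor of the poly(A)-binding protein, fell, at -0.35 ± 0.10 (adjusted p = 0.0213). Ctif, a cap-complex protein, was at -0.24 ± 0.099 (adjusted p = 0.107).

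Of 19 measured regulators upstream of initiation, 4 were lower late than early (21.1%, against 9.29% of all genes tested) and 1 was higher (5.26%, against 11.7%), with a median of -0.10. Pdcd4, an inhibitor that binds the eIF4A helicase, measured 1.44 at 0 h, 1.88, 1.64, 1.64 and 1.32 in the early window, 0.958, 0.836, 0.594 and 0.617 in the middle window and 0.719, 0.816, 0.710 and 1.00 in the late window. All its late and middle arrays lay below all early ones, and the log2 difference was -1.0 ± 0.15 (adjusted p = 3.49e-04). Mknk2, a kinase that phosphorylates eIF4E, measured 1.91 at 0 h, 2.03, 1.78, 1.57 and 1.49 in the early window, 1.03, 1.15, 0.822 and 0.758 in the middle window and 0.878, 0.852, 0.974 and 0.955 in the late window. All late arrays lay below all early ones, and the difference was -0.90 ± 0.12 (adjusted p = 1.39e-04). Ppp1r15a (GADD34), which brings a phosphatase to phosphorylated eIF2 alpha, measured 0.941 at 0 h, 1.78, 1.85, 1.43 and 1.24 in the early window, 0.980, 0.992, 0.879 and 0.895 in the middle window and 1.00, 0.952, 1.02 and 0.998 in the late window. It rose from 0 h to the early window by 0.72 ± 0.16 (adjusted p = 0.0294) and was back near 1.00 late, at -0.65 ± 0.10 (adjusted p = 4.15e-04) against early. Dhps, the enzyme that starts hypusine synthesis on Eif5a, measured 0.667 at 0 h, 0.755, 0.765, 0.942 and 0.967 in the early window, 0.854, 0.983, 0.981 and 1.07 in the middle window and 1.19, 1.29, 1.36 and 1.43 in the late window. Its late arrays were the highest of the series and climbed as those of Eif5a did, and the difference was 0.63 ± 0.094 (adjusted p = 2.89e-04). Tsc2, a brake on mTOR signalling, was the other gene of this list that fell, at -0.32 ± 0.070 (adjusted p = 0.00401).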

How the data were processed

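Per the labels' protocols, biotin-labelled cRNA made from total RNA was hybridised to 1 Affymetrix array per time point. The deposited values are linear ratios per probe set. RMA, version not stated, is named in the submitters' processing notes, and the step by which the authors turned signals into ratios was not given in the sources used here. Of 45101 probe sets, 64 array controls were left out. Of the other 45037, 34945 named 1 gene in the platform annotation, giving 18193 genes, 37 of the 47 Eif genes with several probe sets.

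The log2 of the ratio was averaged over the probe sets of a gene. All 13 arrays entered 1 limma 3.58.1 fit of 4 window means (R 4.3.3, lmFit and eBayes, two-sided), and a smooth course was tested by a moderated F test on a natural cubic spline (4 degrees of freedom). Benjamini-Hochberg adjustment ran over all genes, with 0.05 as the threshold, and an adjusted p of a single probe set comes from the same fit over all probe sets. An interval after ± is the standard error of a log2 difference or, where stated, an SD. The number of arrays limits the precision. No filter on dim probe sets was possible on ratios, and 8 Eif probe sets were below 1 on each of the 13 arrays. The scripts were tested on simulated data. Python 3.11.15 with matplotlib 3.10.9, numpy 2.4.6 and pandas 2.3.3 served for tables and figures.

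The members and lists were chosen with earlier results of these data known. Values on every array are given, per group, for the 2 genes that rose most and the 2 that fell most from early to late, and for the Eif2ak, Eif4a, Eif4ebp and Eif5a genes. From each other list up to 4 genes with the largest late minus early difference are named. Tsc2 and Abce1 were named in addition, after their values were seen, as were the values of Eif1a, Eif4e3, Eif1b and other genes outside this rule. Alternatives were quantile normalisation, centring, a variance trend with a robust prior, other treatments of probe sets, other window edges, a minimum change of 0.3, a straight line or a stiffer spline in time, and leaving out each array. Leaving out probe sets under 1 on all arrays was added after the data were seen. Promoter sequences are from RefSeq (GRCm38.p6).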

Additional observations from a re-analysis of the deposited data

Results flagged for a closer look

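In 7 of 99 windows of 4 arrays tested, over the Eif genes described by array and others that changed, 1 array lay farther from the other 3 than Dixon's critical value for 4 samples allows. For 4 independent replicates chance alone would do this in about 1 of 20. That rate need not hold here, because each window is 4 successive time points and all genes share the same arrays. In the early window, Eif2ak2 stood at 1.10 at 1.0 h against 1.02 on each of the other 3, Eif3b at 1.00 at 2.0 h against 0.877 to 0.897, Eif3e at 0.970 at 0.5 h against 1.04 to 1.05, and Eif3m at 0.798 at 0.5 h against 0.887 to 0.903. In the middle window, Eif1ax stood at 0.868 at 2.5 h against 0.958 to 0.960 on the other arrays, Eif6 at 0.934 at 2.5 h against 1.04 to 1.05, and Eif2ak2 at 0.686 at 4.0 h against 0.903 to 0.955. Each is a single array with no replicate.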

How the results depend on the processing

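No paired analysis was possible because the labels carry no replicate numbers and each time point is 1 array. The late minus early count of 18 Eif genes was 9 (8 higher, 1 lower) when a log2 change of at least 0.3 was also asked for, and 15 to 19 without each array in turn. Under every other alternative with a value, 12 of the 18 kept their call, namely Eif1ad, Eif2b1, Eif2b3, Eif2s2, Eif3b, Eif4a2, Eif4b, Eif4e, Eif4ebp1, Eif5a, Eif5a2 and Eif6. Eif5a and Eif3m had no value without probe sets that can match several transcripts. The 2 genes higher early than at 0 h became 0 under quantile normalisation, 1 with a variance trend and robust prior, 1 with the median over probe sets, 1 with an early window of 0.5 to 1.5 h, and 1 to 4 without each array. The 8 middle minus early genes became 4 with the minimum change and 5 to 10 without each array, and 3 kept their call apart from the minimum change. The 11 late minus middle genes became 6 with centred arrays, 7 with the shorter early window, 2 with the minimum change and 4 to 11 without each array, and 3 kept their call. The 26 smooth courses became 16 with a straight line and 21 to 26 without each array. The eIF2 median of -0.0080 became 0.020 with the median over probe sets, 0.015 with the shorter early window, -0.033 without probe sets under 1 on all arrays, and -0.034 to 0.015 without each array. The eIF4 median of 0.080 became 0.063 under quantile normalisation, 0.0084 without probe sets that can match several transcripts, 0.10 with the median over probe sets, 0.11 without probe sets under 1, and 0.055 to 0.11 without each array, and the eIF5 median of 0.19 became 0.10 without probe sets that can match several transcripts. Signs turned for genes near 0 that passed no late minus early test. Eif2ak1 became 0.020 with the median over probe sets and 0.026 with the shorter early window or without the 2.0 h array, Eif2ak4 -0.034 without 4.5 h, and Eif4a3 0.021 without 6.0 h. Eif5 became 0.092 with the median over probe sets and 0.043 with the shorter early window or without 2.0 h. The cause was not tested. Signal over background could not be read from ratios, so what dim transcripts limit is unknown.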
